A study of Mus musculus with 8 samples.

Results

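The genes described here encode the IL-22 receptor and the IL-20 family of cytokines: the ligands Il22, Il19, Il20 and Il24, the receptor chains Il22ra1, Il20ra, Il20rb and Il10rb, the soluble decoy receptor Il22ra2, and the transcription factor Stat3. They were chosen by name, with earlier results of these data known, and each was represented by the probe set annotated to that symbol alone. All 10 genes had 1 such probe set, among 22180 genes measured. The data are 8 Affymetrix arrays of dorsal skin from male mice, 1 for each label. The WT_CTRL and WT_IMQ arrays hold skin of C57BL/6 mice, and the 6 arrays labelled KO hold skin of the strain B6.Cg-Il22ra1tm1.1Koll/J, which carries a targeted Il22ra1 allele. IMQ in a label stands for imiquimod cream (83.3 mg at 5%, on days 1 to 7), and Allo for a cream with the peptide alloferon, which KO_IMQ_Allo received 6 hours after imiquimod and KO_Allo, by its label, without imiquimod. The arrays were taken as 4 pairs whose labels differ in IMQ alone: WT_CTRL and WT_IMQ, KO_CTRL and KO_IMQ, KO_CTRL-B and KO_IMQ_B, and KO_Allo and KO_IMQ_Allo. That the plain and B arrays pair up in this way is an assumption from the label names. When the plain KO and B arrays shared 1 level in the fit, 454 genes instead of 685 were called with imiquimod. The labels name no Cre driver and do not state whether, or in which cells, Il22ra1 was inactivated, so KO is used here as a label only. They give no age and do not explain the letter B, and alloferon was given to KO mice only. The study states 4 mice per group, and the labels do not say how many of them an array represents. Nothing says that arrays set side by side as replicates came from separate animals, so the p-values cover only how far these arrays scatter, which may be technical.

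IL-22 is made mainly by lymphocytes and acts on epithelial cells through a receptor of Il22ra1 and Il10rb chains. IL-19, IL-20 and IL-24 signal through Il20ra paired with Il20rb, and IL-20 and IL-24 also through Il22ra1 paired with Il20rb, so the targeted chain serves more than 1 ligand. All of these receptors act through JAK kinases and STAT3, and in keratinocytes they induce antimicrobial genes, slow terminal differentiation and thicken the epidermis. Imiquimod, a Toll-like receptor agonist, causes psoriasis-like inflammation of mouse skin.

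The sequences below come from before a RefSeq start site of members that the results turn on. RefSeq (GRCm38.p6) promoter windows were matched for 7 of the 10 members and were searched over the 250 bases before the start site for 2 palindromic motifs, the STAT motif TTCNNNGAA and the AP-1 motif TGANTCA. Of 32851 windows of this length in the table, 7.02% held the first and 6.75% the second. A match describes letters in the window and is not a binding site. Among the members, 3 windows held a match: that of Il19 the STAT motif, and those of Il22ra1 and Il20ra the AP-1 motif. The Il22ra1 window (chr4:135727909-135728158, plus strand) and the Il20 window (chr1:130911297-130911546, minus strand) lie just before the start of the RefSeq gene. They are shown whole because Il22ra1 is the targeted gene and Il20 the member with the smallest p between the genotype labels. The Il19 stretch (chr1:130940321-130940350, minus strand) and the Il20ra stretch (chr10:19712412-19712441, plus strand) show the match of each with the bases around it. Both of these stretches lie inside the annotated gene, after the gene start given by RefSeq and before the start site of another transcript. Capitals mark a motif, and the Il20 window held neither.
Il22ra1: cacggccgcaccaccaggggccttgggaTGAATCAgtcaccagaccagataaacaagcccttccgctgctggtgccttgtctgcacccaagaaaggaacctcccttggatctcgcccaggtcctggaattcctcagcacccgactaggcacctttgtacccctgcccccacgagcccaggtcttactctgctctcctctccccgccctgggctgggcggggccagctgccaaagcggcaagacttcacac
Il20: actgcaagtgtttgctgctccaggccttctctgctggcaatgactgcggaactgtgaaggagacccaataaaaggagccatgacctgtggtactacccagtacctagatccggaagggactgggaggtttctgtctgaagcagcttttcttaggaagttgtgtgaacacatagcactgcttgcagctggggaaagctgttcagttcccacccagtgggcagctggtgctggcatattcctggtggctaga
Il19: gagtttatttTTCCCAGAAgcaatgtgtca
Il20ra: ctctgctgtacTGAGTCAgagctcatcggc

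Il22 has a near copy in the RefSeq annotation, Iltifb, next to it on chromosome 10, and probes may not tell the copies apart. A stretch of 30 bases from both is shown. It was picked as the most alike stretch that holds a difference, so it does not measure how alike the copies are as a whole. It lies before the start site of the RefSeq window, which for Il22 is inside the annotated gene, after the start of a longer transcript: 29 bases were identical, and the difference, marked by capitals, was C5T counted from the first base of the stretch (Il22 at chr10:118204904-118204933, plus strand, and Iltifb at chr10:118295047-118295076, minus strand).
Il22: catgCtcccctgatgtttttgccttttgct
Iltifb: catgTtcccctgatgtttttgccttttgct

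The medians of the 8 arrays lay within 0.05 log2 units of each other. The keratinocyte markers that define the labelled tissue were present on all 8 arrays, with a list median between 10.18 and 10.62 (9 of 10 markers measured). Other tissue moved with imiquimod. The median of 14 skeletal muscle markers was 8.61 to 11.24 without imiquimod and 8.0 to 9.08 with it, that of 17 hair follicle markers 7.02 to 10.10 and 5.41 to 7.66, and that of 12 monocyte and macrophage markers 7.04 to 7.59 and 8.44 to 9.25. In whole skin, fewer cells of a type and less RNA per cell cannot be told apart.

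The first comparison asks what imiquimod changed over the 4 pairs. Of the 10 members 1 was called in limma at an adjusted p under 0.05, Il10rb, which rose, against 3.09% of all genes called in either direction (1.9% higher and 1.19% lower). The member with the largest difference was Il20ra, which was lower with imiquimod in 4 of 4 pairs but did not pass. The arrays with and without imiquimod did not overlap for 2 members, Il10rb (higher) and Il20ra (lower), against 11% of all genes (5.96% higher and 5.04% lower). The median difference was 0.36 log2 units over the members and -0.01 over all genes, and 7 of 10 members were positive.

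**Figure D1:**
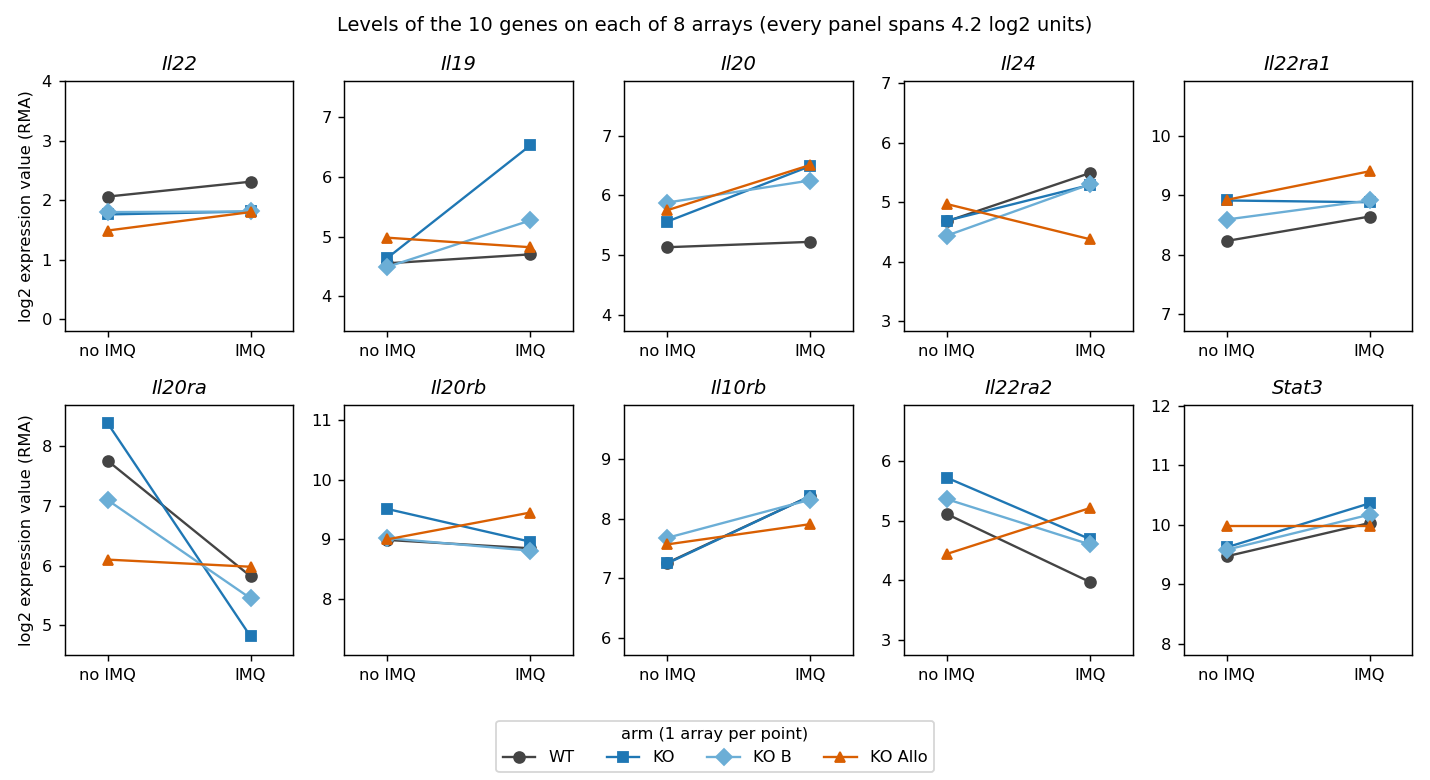
Level of each gene (log2 expression value, vertical axis) on the array without and with imiquimod (IMQ, horizontal axis). Each line joins the 2 arrays of a pair, every panel spans the same range, and the colours mark the arms. Il20ra read 8.39 and 4.81 in the plain KO pair, and 6.10 and 5.98 in the alloferon pair.

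Among the receptor chains, Il10rb encodes the chain shared by the receptors for IL-22, IL-10 and the lambda interferons. It read 7.26, 7.25, 7.68 and 7.57 on WT_CTRL, KO_CTRL, KO_CTRL-B and KO_Allo, and 8.38, 8.38, 8.32 and 7.91 on the matching imiquimod arrays. Every imiquimod array lay above every array without it, and KO_IMQ_Allo was the lowest of the 4. Il10rb rose by 0.81 ± 0.15 log2 units (limma SE, 4 pairs), 1.75-fold, with an adjusted p = 0.0479. This call stands at the threshold: the adjusted p in limma was 0.0501 after quantile normalisation and centring of the arrays. It was 0.149 to 0.200 when any array of the WT, KO or KO B pairs was left out, which takes out its whole pair. With the muscle marker median as a covariate the difference was 0.29 (adjusted p = 0.875 in limma), and with the hair follicle median 0.75 (adjusted p = 0.908). Both medians were themselves lower with imiquimod in every pair, and 0 of 22180 genes were called with either. The macrophage markers moved with it: they were highest on the arrays where Il10rb was highest (9.19, 8.97 and 9.25 on WT_IMQ, KO_IMQ and KO_IMQ_B), lower on KO_IMQ_Allo at 8.44, and at most 7.59 without imiquimod. Their part in the result was not tested.

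Il20ra encodes the chain that, with Il20rb, binds IL-19, IL-20 and IL-24. It read 7.76 on WT_CTRL, 8.39 on KO_CTRL, 7.10 on KO_CTRL-B and 6.10 on KO_Allo, and 5.82, 4.81, 5.45 and 5.98 on the matching imiquimod arrays. The 4 imiquimod arrays were the lowest of the 8, while the pairs ranged from -3.58 log2 units in the plain KO pair to -0.12 in the alloferon pair. Over the 4 pairs the difference was -1.82 ± 0.48, a size of 3.54-fold, with an adjusted p = 0.100 in limma. Without the alloferon pair it was -2.39 ± 0.36 (adjusted p = 0.0187 in limma), and 0.06 ± 0.46 with the muscle marker median as a covariate. That median was itself lower with imiquimod in every pair, and 0 of 22180 genes were called with it as a covariate. The fit therefore cannot separate muscle content from imiquimod. The arrays where Il20ra was highest, KO_CTRL and WT_CTRL, also had the highest muscle marker medians (11.24 and 10.99, against 8.92 on KO_CTRL-B and 8.61 on KO_Allo). The median of 9 adipocyte markers had the same order on the arrays without imiquimod (8.96, 8.54, 8.04 and 7.55 on KO_CTRL, WT_CTRL, KO_CTRL-B and KO_Allo) and was 7.23 to 7.93 with it. The hair follicle median was 7.02 on KO_CTRL and 10.10 on KO_CTRL-B. On the KO_IMQ array, where Il20ra was lowest, the muscle median was 8.47 and the hair follicle median 5.41, the lowest of the 8 arrays. Over the 8 arrays Pearson's r of Il20ra was 0.87 with the muscle, 0.85 with the adipocyte and 0.53 with the hair follicle median. It was -0.86 with the monocyte and macrophage median and -0.91 with the neutrophil median. With the median of genes that IL-22 is known to induce in epithelium it was -0.96. The part of muscle, fat, hair follicle or immune cell content in the result was not tested beyond these values.

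**Figure D2:**
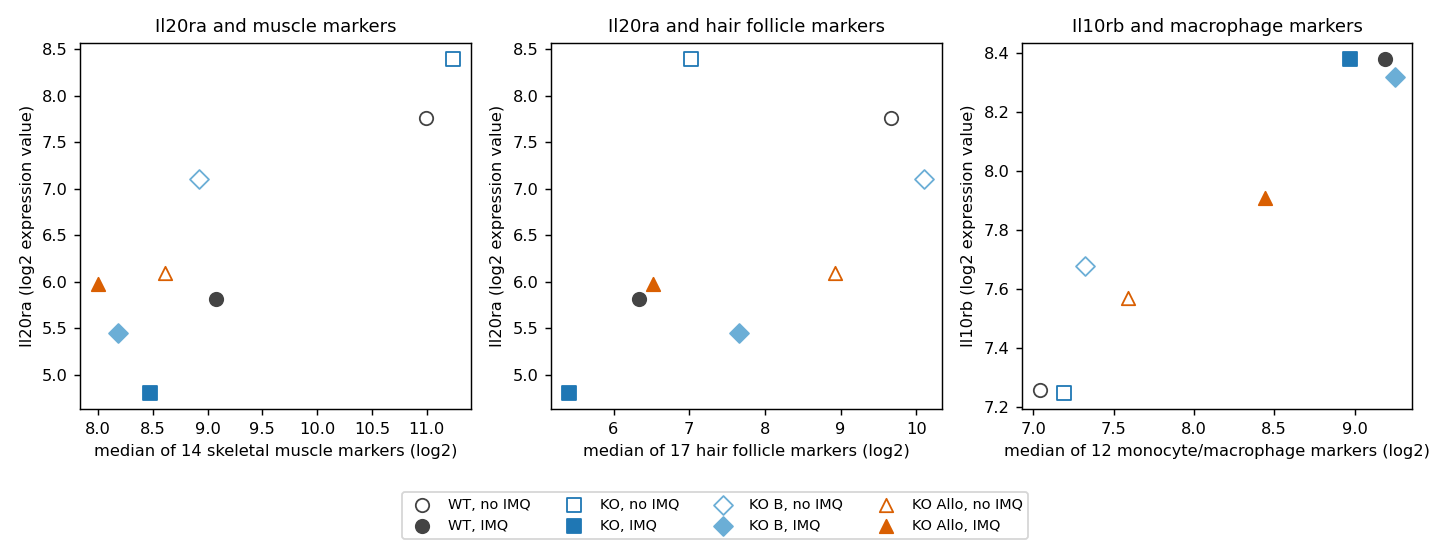
Il20ra (left and middle) and Il10rb (right), as log2 expression values, against the median level of muscle, hair follicle and macrophage markers on the same arrays. Each point is 1 array, with filled symbols for imiquimod and shapes for the arms. KO_CTRL and WT_CTRL stand at the right of the muscle panel, at 11.24 and 10.99, and the imiquimod arrays at the right of the macrophage panel, at or above 8.44.

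Il22ra1 encodes the targeted chain, which pairs with Il10rb for IL-22 and with Il20rb for IL-20 and IL-24. It read 8.23, 8.91, 8.59 and 8.92 without imiquimod (WT_CTRL, KO_CTRL, KO_CTRL-B, KO_Allo) and 8.64, 8.88, 8.91 and 9.40 with it. The transcript signal was thus present on all 6 arrays labelled KO, the highest of them KO_IMQ_Allo. Its imiquimod difference was 0.29 ± 0.11 (adjusted p = 0.226). Il20rb, the partner chain of Il20ra, read 8.99, 9.51, 9.02 and 9.0 without and 8.85, 8.96, 8.81 and 9.45 with imiquimod, a difference of -0.11 ± 0.16 (adjusted p = 0.781). Its groups overlapped, with KO_CTRL and KO_IMQ_Allo above the other 6 arrays.

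Il22ra2 encodes the IL-22 binding protein, a soluble decoy that holds IL-22 away from its receptor. It read 5.11, 5.72, 5.36 and 4.44 on WT_CTRL, KO_CTRL, KO_CTRL-B and KO_Allo, and 3.97, 4.69, 4.60 and 5.21 with imiquimod. The WT, KO and KO B pairs were lower with imiquimod by 1.14, 1.04 and 0.76 log2 units in size, and the alloferon pair was higher by 0.77. Over all 4 pairs the difference was -0.54 ± 0.31 (adjusted p = 0.407), and over the 3 pairs without alloferon it was -0.98 ± 0.12 (adjusted p = 0.0105).

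The 3 ligands of the IL-20 receptors lie side by side on chromosome 1, in the order Il24, Il20, Il19, followed by Il10. Il19 read 4.55, 4.64, 4.49 and 4.98 on WT_CTRL, KO_CTRL, KO_CTRL-B and KO_Allo, and 4.70, 6.53, 5.27 and 4.82 with imiquimod. KO_IMQ stood above the other arrays, and its pair carried most of the mean difference of 0.67 ± 0.31 (adjusted p = 0.317 in limma). Without KO_IMQ, and so without its pair, the mean difference was 0.26. Il20 read 5.13, 5.56, 5.88 and 5.75 without imiquimod and 5.22, 6.49, 6.25 and 6.51 with it. It was higher with imiquimod in 4 of 4 pairs, by 0.09 in WT and 0.37 to 0.93 in KO, and the mean of 0.54 ± 0.15 had an adjusted p = 0.121. Il24 read 4.68, 4.69, 4.44 and 4.97 without imiquimod and 5.49, 5.29, 5.30 and 4.38 with it. The WT, KO and KO B pairs were higher with imiquimod by 0.82, 0.60 and 0.86, and the alloferon pair was lower by 0.59 in size, so that the mean was 0.42 ± 0.24 (adjusted p = 0.416). The median of 8 mast cell markers was likewise higher with imiquimod in those 3 pairs (7.35 against 5.46, 6.22 against 5.80 and 6.35 against 5.14) and lower in the alloferon pair (5.62 against 6.42), and its part in the result was not tested. Il10, beside Il19, measured 0.13 ± 0.18 and did not pass.

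Il22 itself read 2.06, 1.76, 1.80 and 1.49 without imiquimod and 2.31, 1.81, 1.81 and 1.80 with it, in a table whose lowest value was 1.37. All 8 values lay near that lowest value, and robust multi-array averaging compresses differences there. Its imiquimod difference was 0.16 ± 0.10 (adjusted p = 0.455), and that of the copy Iltifb was 0.21 ± 0.10. Whether Il22 transcript lay above background was not measured. Stat3, the shared transcription factor, read 9.47, 9.62, 9.58 and 9.98 without imiquimod and 10.03, 10.36, 10.17 and 9.98 with it. The WT, KO and KO B pairs were higher by 0.56, 0.74 and 0.60, and both alloferon arrays stood at the same level, for a mean of 0.47 ± 0.14 (adjusted p = 0.130).

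**Figure D3:**
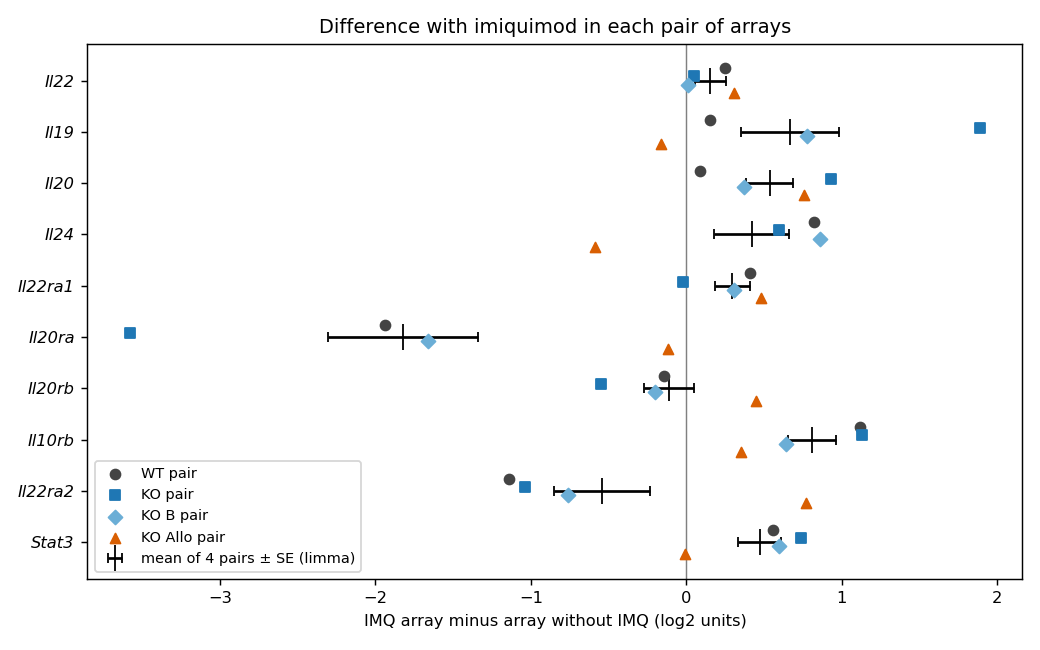
Difference between the imiquimod array and its partner (log2 units, horizontal axis) for each gene. Symbols are the 4 pairs, and the black bar is the limma mean over the pairs with its standard error. For Il24 and Il22ra2 the alloferon pair lies on the other side of zero, at -0.59 and 0.77, from the other 3 pairs.

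The fit was also made without the alloferon pair, which stood apart from the others for several members. Then 5 of 10 members were called in limma, against 5.89% of all genes (3.72% higher and 2.17% lower): Il24, Il10rb and Stat3 measured 0.76 ± 0.11, 0.96 ± 0.14 and 0.63 ± 0.11 log2 units (adjusted p = 0.0194, 0.0170 and 0.0287), and Il20ra and Il22ra2 had the negative values given above. The members, and the leaving out of the pair that departed from the rest, were chosen with results of these arrays known. The count therefore describes these 3 pairs and adds no support beyond the fit of all 4. Il19 (0.94 ± 0.31), Il20 (0.46 ± 0.18), Il22ra1 (0.23 ± 0.13), Il20rb (-0.30 ± 0.13) and Il22 (0.10 ± 0.11) did not pass.

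The second comparison tests that contrast directly, setting the imiquimod difference of the alloferon pair against that of the other 3 pairs. None of the 10 members passed in limma, where 0.00902% of all genes did (2 genes) and 1828 had an unadjusted p under 0.05. Il22ra2 came nearest: its imiquimod difference was higher in the alloferon pair by 1.75 ± 0.24 log2 units (adjusted p = 0.154). For Il24 the contrast was -1.35 ± 0.23 (adjusted p = 0.229), for Il20ra 2.27 ± 0.71 (adjusted p = 0.486), for Stat3 -0.64 ± 0.22 and for Il20rb 0.75 ± 0.26 (both adjusted p = 0.516). For Il10rb it was -0.61 ± 0.28, for Il19 -1.10 ± 0.62, for Il20 0.30 ± 0.35, for Il22ra1 0.25 ± 0.26 and for Il22 0.21 ± 0.22. Each contrast rests on 1 pair of arrays on the alloferon side.

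**Figure D4:**
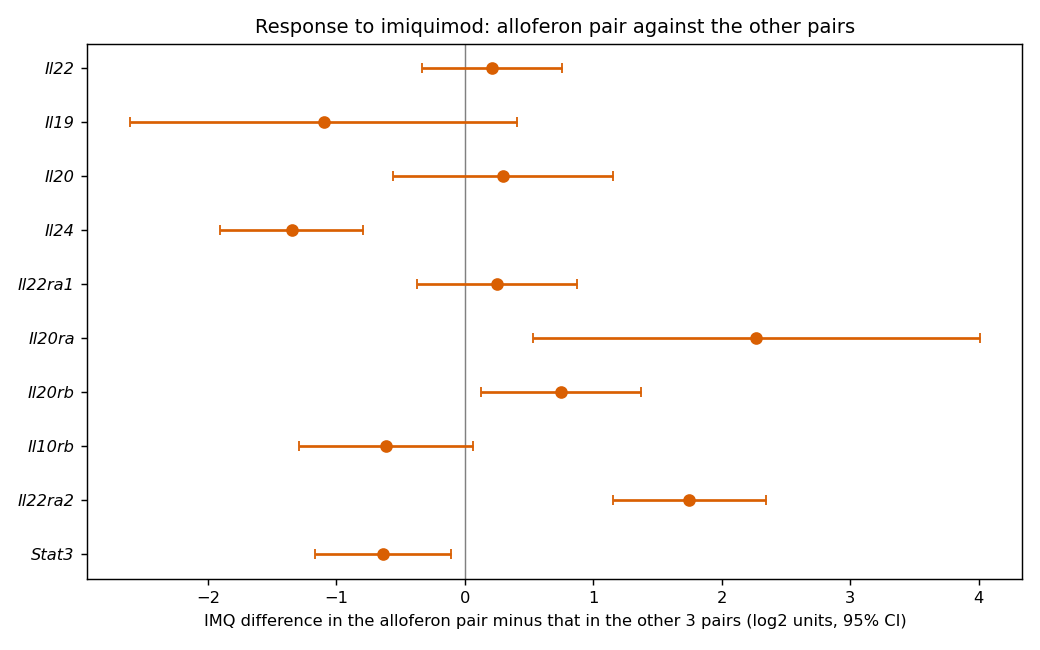
Imiquimod difference of the alloferon pair minus that of the other 3 pairs (log2 units, horizontal axis) for each gene, with 95% confidence intervals from limma that are not adjusted for the number of genes. The interval of Il22ra2 runs from 1.15 to 2.34 and that of Il24 from -1.90 to -0.79.

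Both arrays of the alloferon pair contributed to it. Without imiquimod, KO_Allo differed from the mean of KO_CTRL and KO_CTRL-B by -1.65 log2 units for Il20ra, -1.10 for Il22ra2, 0.40 for Il24 and 0.39 for Stat3. With imiquimod, KO_IMQ_Allo differed from the mean of KO_IMQ and KO_IMQ_B by 0.85, 0.57, -0.92 and -0.29 for the same genes. For each of the 4, the alloferon array lay on opposite sides of the other KO arrays with and without imiquimod. Il19 did likewise, at 0.41 and -1.08. These are differences of single arrays from pairs of arrays and have no test of their own.

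The third comparison asks how alloferon differed from no alloferon over the KO arrays, with imiquimod in the same fit. None of the 10 members passed, as for all genes (0% called in limma, with 1110 genes at an unadjusted p under 0.05). Il22ra1 was higher on the alloferon arrays by 0.34 ± 0.14 log2 units (95% interval 0.02 to 0.66, adjusted p = 0.950), with 0.17 on the arrays without and 0.51 on those with imiquimod. The ligands Il22, Il19, Il20 and Il24 measured -0.15 ± 0.11, -0.34 ± 0.43, 0.09 ± 0.18 and -0.26 ± 0.29. The intervals were widest for Il20ra, from -1.73 to 0.93, and for Il19, from -1.34 to 0.66, and both hold differences in either direction.

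The fourth comparison sets the 6 arrays labelled KO against the 2 labelled WT, adjusted for imiquimod and alloferon. None of the 10 members passed, as for all genes (0% called in limma, with 1026 genes at an unadjusted p under 0.05). The arrays of the 2 labels did not overlap for 2 members, Il20 (higher in KO) and Il22 (lower), against 6.44% of all genes (4.09% higher and 2.35% lower). Il20 was higher on every KO array, with a mean of 6.07 ± 0.40 (SD, n = 6) against 5.18 ± 0.06 (SD, n = 2), and an adjusted difference of 0.87 ± 0.18 log2 units or 1.82-fold (95% interval 0.45 to 1.28, unadjusted p = 0.00148, adjusted p = 0.939 in limma). With 1 array left out the difference ran from 0.57 (without WT_IMQ) to 1.17 (without WT_CTRL). The KO arrays without alloferon alone differed from WT by 0.59 without imiquimod and by 1.15 with it. Il22 was lower on every KO array, by 0.39 ± 0.11 in size, at levels near the lowest of the table, and its copy Iltifb measured -0.38 ± 0.12.

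**Figure D5:**
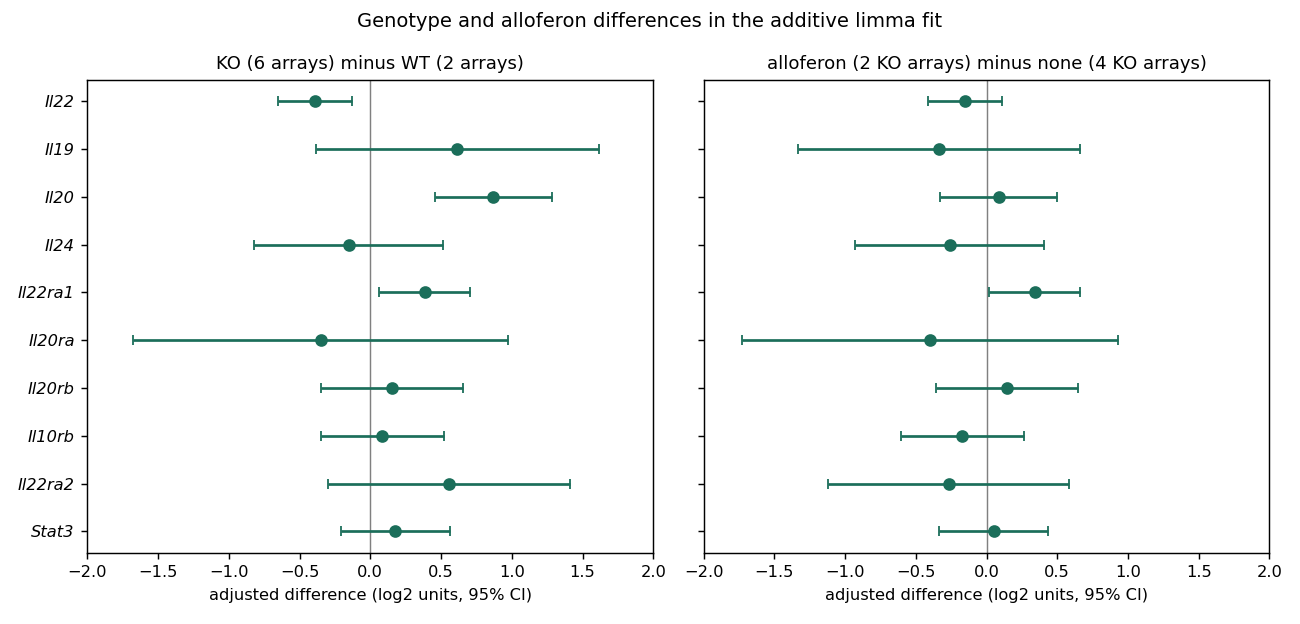
Differences between the genotype labels (left) and between alloferon and no alloferon on the KO arrays (right), in log2 units with 95% limma confidence intervals not adjusted for the number of genes. The interval of Il20 lies above zero on the left, from 0.45 to 1.28, and that of Il20ra spans from -1.68 to 0.98.

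Il22ra1, the targeted gene, had transcript signal under both genotype labels. Its difference was 0.38 ± 0.14 log2 units, higher in KO (95% interval 0.06 to 0.70, adjusted p = 0.999), and WT_IMQ at 8.64 lay above KO_CTRL-B at 8.59. The genes on both sides of it on chromosome 4, Ifnlr1 and Myom3, measured 0.40 ± 0.18 and 0.37 ± 0.23 in the same direction. The next genes out, 1700029M20Rik and Srsf10, measured 0.11 ± 0.11 and 0.08 ± 0.20, and none of these neighbours passed. The labels do not place the probe set relative to the altered part of the gene, and a level read outside that part is no check of genotype. The other chains measured -0.35 ± 0.57 (Il20ra), 0.15 ± 0.21 (Il20rb) and 0.09 ± 0.19 (Il10rb), the decoy Il22ra2 0.55 ± 0.37 and Stat3 0.18 ± 0.16.

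The fifth comparison asks whether the imiquimod difference was another in WT than in KO. None of the 10 members passed, as for all genes (0% called in limma, with 914 genes at an unadjusted p under 0.05). For Il20 the WT difference was smaller by 0.60 ± 0.29 in size, for Il22ra2 the contrast of WT minus KO was -0.79 ± 0.71, for Il19 -0.69 ± 0.75 and for Il10rb 0.42 ± 0.34. For Il20ra it was -0.15 ± 1.23, an interval from -3.23 to 2.93 that leaves the comparison without information on that gene at this number of arrays. None of these values shows equal responses.

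Other genes of the pathway were described from 6 lists over the 4 imiquimod pairs. The lists were chosen with earlier results of these data known, so the shares called describe them and test nothing. Genes that IL-22 is known to induce in epithelium had 8 of 21 called, all higher, beside 3.09% of all genes, with a list median of 1.62 log2 units against -0.01 over all genes. They were S100a8 (5.34 ± 0.47), S100a9, which with S100a8 forms the alarmin calprotectin (4.70 ± 0.36), the keratin Krt16 (4.30 ± 0.79), the beta-defensins Defb3, Defb14 and Defb4 (3.53 ± 0.44, 2.28 ± 0.32 and 1.62 ± 0.27), IL-36 gamma, annotated as Il1f9 (2.47 ± 0.21), and the iron-binding Lcn2 (2.04 ± 0.22). The wound keratins Krt6b and Krt6a (5.24 ± 1.18 and 2.73 ± 0.60) and the acute phase gene Saa3 (3.66 ± 0.85) did not pass (adjusted p = 0.0676, 0.0640 and 0.0743 in limma). The antimicrobial lectin gene Reg3g, a textbook IL-22 target, measured 0.03 ± 0.16. The list median per array was 5.51 and 7.98 in the WT pair, 5.89 and 9.08 in the KO pair and 6.14 and 8.89 in the KO B pair, and 7.92 and 7.91 in the alloferon pair. By this median KO_IMQ and KO_IMQ_B lay above WT_IMQ, and KO_IMQ_Allo lay below it. The median on KO_Allo, without imiquimod, was as high as on KO_IMQ_Allo. Single genes differed from the median: the 8 called genes were each higher on KO_IMQ_Allo than on KO_Allo, by 0.67 (Defb4) to 3.38 log2 units (S100a8). They were called over all 4 pairs, this pair included, which favours genes that rose in it, so their direction there is no separate result. In the contrast of the alloferon pair with the other pairs, 4 of the 21 list genes were positive, with a median of -1.24. Krt6a, Krt6b and Saa3 differed by 0.31, 0.29 and -0.05 in that pair. S100a8, which is also a neutrophil gene, read 7.92 on KO_Allo, against 5.27 to 5.74 on the other 3 arrays without imiquimod and 11.14 to 11.92 on those with it. The keratins on KO_Allo were closer to the imiquimod arrays. Krt6b read 11.83 there, against 4.67 to 7.49 and 12.12 to 12.71, and Krt16 10.59, against 5.89 to 7.19 and 11.43 to 11.99. Lcn2 and Defb4, at 6.26 and 6.19 on KO_Allo, lay within the other arrays without imiquimod (5.51 to 6.47 and 5.40 to 6.26).

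Of the differentiation genes that IL-22 is known to lower, 4 of 12 were called, beside 3.09% of all genes, and all 4 were higher (list median 0.69). They were the cornified envelope gene Cnfn (1.78 ± 0.17), Casp14, a caspase of cornification (1.33 ± 0.20), the protease Klk7 (0.78 ± 0.10) and the desmosomal cadherin Dsc1 (0.75 ± 0.13). Krt77 and Flg2 measured -4.28 ± 0.88 and -1.89 ± 0.38 (adjusted p = 0.0566 and 0.0529 in limma). Of the STAT3-induced genes 3 of 18 rose and 1 fell, beside 3.09% of all genes called (list median 0.33). Bcl3, an NF-kB cofactor, rose by 1.02 ± 0.16, the transcription factor Cebpb by 0.56 ± 0.11 and the oncostatin M receptor Osmr by 0.54 ± 0.10, and the cyclin gene Ccnd1 fell by 0.67 ± 0.11. Timp1, Il4ra and Hif1a measured 1.45 ± 0.47, 0.96 ± 0.30 and 0.76 ± 0.15 and did not pass.

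Of the JAK-STAT genes and their inhibitors 2 of 24 were called, beside 3.09% of all genes (list median 0.10), Osmr, which is in both lists, and Stat6, the IL-4 and IL-13 signal transducer (0.49 ± 0.10, adjusted p = 0.0495). The feedback inhibitor Socs3 measured 0.56 ± 0.22, Il6 0.62 ± 0.22 and the phosphatase Ptpn6 0.57 ± 0.13. In the IL-10 family and its class of receptors 0 of 12 passed, beside 3.09% of all genes (list median 0.17). The largest differences were those of Il10ra, the ligand-binding chain that pairs with Il10rb for IL-10 (1.08 ± 0.22, adjusted p = 0.0535 in limma), F3 (-0.62 ± 0.20), Ifnar2 (0.48 ± 0.17) and Ifngr2 (0.43 ± 0.09). Of the genes that induce or accompany IL-22 production 1 of 16 passed, beside 3.09% of all genes (list median 0.28), the IL-23 receptor chain Il23r (1.34 ± 0.21, adjusted p = 0.0294). Il23r rose from 4.07, 3.94, 4.24 and 4.46 to 5.16, 6.12, 5.38 and 5.41, with no overlap. Il1b, Il17f and Il6 measured 1.94 ± 1.14, 0.74 ± 0.20 and 0.62 ± 0.22. The Il1b mean joins differences of 3.63, 2.93 and 4.29 in the WT, KO and KO B pairs with -3.08 in the alloferon pair. In the genotype, alloferon and response comparisons 0 members of these 6 lists passed.

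The members lie among relatives on their chromosomes. Of the 28 nearest measured genes that are not members 0 were called with imiquimod in limma, beside 3.09% of all genes. Their differences ran from -0.42 to 0.48 log2 units. An unadjusted p under 0.05 in limma was found for 6 of them and for 4171 of all 22180 genes. Il10rb lies near Ifnar2 and Ifnar1, the chains of the type I interferon receptor, on chromosome 16, and these measured 0.48 ± 0.17 and 0.37 ± 0.11 beside 0.81 for Il10rb. On chromosome 10 the order is Ifngr1, Il22ra2, Il20ra, with differences of 0.21, -0.54 and -1.82. Stat5a and Stat5b, next to Stat3 on chromosome 11, measured 0.15 and 0.07 beside 0.47.

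The genes whose levels over the 8 arrays were most like those of a member were taken among 3112 genes that spanned 1 log2 unit or more. Likeness was Pearson's r over 8 arrays, which share their imiquimod status, and it says nothing of shared function. For Il10rb they were Vav1, a signalling protein of blood cells (r = 0.984), C1qb, a complement subunit made by macrophages (0.983), and Dusp5 (0.983). For Il20ra they were Dab1 (0.985), the actin-severing Gsn (0.984) and the small heat shock protein Hspb8 (0.979). For Il24 they were Ptgs2, the inducible prostaglandin synthase (0.964), the granule proteoglycan Srgn (0.957) and Hdc, which makes histamine (0.950). Ptgs2 read 6.13, 6.56, 5.60 and 7.54 without imiquimod and 8.58, 7.68, 8.81 and 5.51 with it, and so was also lower with imiquimod in the alloferon pair alone. For Il22ra1 they were Cyp26b1, Ly6g6c and Spry3 (0.966, 0.961 and 0.958), for Il19 Homer3, Bcl2l15 and Gm5414 (0.982, 0.959 and 0.942), for Il20 Acot5, Plet1 and Vnn3 (0.950, 0.948 and 0.937) and for Il22ra2 Gm13498, Fcgbp and H2-M2 (0.952, 0.947 and 0.941).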

How the data were processed

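Total RNA of dorsal skin was hybridised to Affymetrix arrays, 1 array per label. The deposited values are log2 expression values. Per the submitters' processing notes the authors used Affymetrix Power Tools with the RMA method (robust multi-array averaging). The same notes list R 3.3.2 but not what it did. This method subtracts background and gives every array a common distribution, which compresses differences of dim genes. All 8 value columns were matched by name.

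Of 41345 probe sets, 23521 had 1 gene symbol, 1814 several and 16010 none in the platform annotation. The probe set with the highest mean stood for a gene, which gave 22180 genes, with no filter. Tests used limma 3.58.1 in R 4.3.3 (lmFit and eBayes, Benjamini-Hochberg over all genes). A gene was called, and is said to have risen or fallen, at an adjusted p under 0.05. Values with ± are limma standard errors unless SD is stated. The imiquimod fit had a level per pair, the genotype and alloferon fit additive terms with plain and B arrays together, and the response fits a level per pair and 2 imiquimod effects. The fits were tested on simulated data. Of genes changed by 1 log2 unit, the imiquimod, genotype and alloferon fits called 64%, 56% and 64%, and both response fits 0%. Of genes changed by 2 log2 units, the response fits called 30% (WT against KO) and 42% (alloferon pair against the others). A member that did not pass in a response fit is therefore not shown to be unchanged. The number of arrays limits the precision.

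The members and lists were chosen with earlier results of these data known. Genes named are the members, list genes that were called or among the 4 largest imiquimod differences of a list, the 3 genes most like a member and called neighbours. Other genes (Reg3g, Krt6a, Iltifb and the neighbours named) were chosen after their values were seen. Alternatives were a filter on dim genes, every probe set, quantile normalisation, a trended prior, other terms or tissue covariates, and leaving out arrays.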

Additional observations from a re-analysis of the deposited data

Results flagged for a closer look

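In 30 sets of arrays examined (10 genes over the 4 arrays without imiquimod, the 4 with it and the 6 labelled KO), 4 had a highest or lowest array far from the nearest of the others, measured as the gap over the whole range. At the 95% critical value used, chance alone gives some such sets, about 5% of them. Il22 on WT_IMQ stood above the other 3 imiquimod arrays (ratio 0.978), and Il22 on KO_Allo below the other 5 KO arrays (ratio 0.850), both near the lowest value of the table. Il20rb on KO_CTRL stood above the other 3 arrays without imiquimod (ratio 0.951). Il10rb on KO_IMQ_Allo stood below the other 3 imiquimod arrays (ratio 0.867).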

How the results depend on the processing

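The count of members called with imiquimod was 1, and 0 after quantile normalisation and centring, with the hair follicle covariate or with the muscle covariate, and 5 without the alloferon pair. Leaving out 1 array gave 0 to 5. Where a fit has a level per pair, leaving out 1 array takes its whole pair out of the estimate. Leaving out an alloferon array was thus the same imiquimod fit as leaving out the alloferon pair. The count over all genes was 685, and 1028 without dim genes, 454 with the plain KO and B arrays at 1 level and 0 with either covariate. It was 1307 without the alloferon pair and 0 to 1307 with 1 array left out. It was 0 without WT_CTRL or WT_IMQ. For the response of the alloferon pair 2 genes were called, 33 with a trended robust prior and 0 to 24 with 1 array left out. For genotype and for alloferon it was 0 to 1 with 1 array left out, and 0 members were called in any alternative of these 2 or of the 2 response comparisons. A tissue covariate turned the sign of the imiquimod difference of members that were not called: with the hair follicle covariate Il22 measured -0.11 and Il22ra1 -0.29, and with the muscle covariate Il19 -0.29, Il24 -0.04, Il20ra 0.06, Il20rb 0.37 and Il22ra2 0.36. Il10rb kept its sign at 0.75 and 0.29, with an adjusted p of 0.908 and 0.875 in limma. The cause was not tested. The WT minus KO response of Il20rb, -0.03, was 0.03 after quantile normalisation. With 1 array left out the sign turned for Il20rb with imiquimod (range -0.30 to 0.04), for Il24 and Il10rb by genotype (-0.42 to 0.11 and -0.12 to 0.29), for Il20ra, Il20rb and Stat3 in WT minus KO response (-1.05 to 0.68, -0.26 to 0.24 and -0.11 to 0.26), and for alloferon in Il19 (-0.89 to 0.21), Il20 (-0.06 to 0.24), Il24 (-0.93 to 0.41), Il20ra (-1.53 to 0.74), Il20rb (-0.23 to 0.52), Il10rb (-0.48 to 0.14), Il22ra2 (-1.14 to 0.60) and Stat3 (-0.27 to 0.37).

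The response of WT could not be fitted without a WT array, nor that of the alloferon pair without an alloferon array. The labels carry no replicate numbers, and the pairing by label is part of the imiquimod fit itself. The count with the plain KO and B arrays at a shared level is given above. A level per arm gave 0 genes called in limma by genotype and 0 by alloferon (1102 and 1263 at an unadjusted p under 0.05). With 1 array per label, 2 to 4 residual degrees of freedom and no detection calls used here, levels near the lowest value of the table, as for Il22, cannot be told from background.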
